A study of Homo sapiens with 12 samples.

Results

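Transcripts of 6 enzymes that make NADPH, or that run in the pathway that makes it, are described here. They are PGD, TKT, TALDO1, ME1, IDH1 and IDH2, taken by gene name from a table of 58676 genes, where each name had 1 row. Of the 6, TKT and TALDO1 produce no NADPH themselves. They recycle sugars for the step that does, so the set is broader than a list of NADPH producers. RNA was sequenced from A549, an established human lung adenocarcinoma cell line, in a control line (labelled Control1) and 2 lines with a knockout of NFE2L1 (KO1 and KO2). Each line was given DMSO as vehicle or 200 nM bortezomib, an inhibitor of the proteasome, for 4 h. This made 6 groups of 2 libraries, all from cells grown in the same serum-containing medium. The labels do not say whether a line is a single clone, how the knockout was made, or whether the 2 libraries of a group came from separate cultures, so p-values measure only the spread between these libraries.

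NADPH is the electron donor that cells spend on reducing glutathione and thioredoxin and on building fatty acids, sterols and deoxynucleotides. The pentose phosphate pathway supplies it in the cytosol, cytosolic malic enzyme and isocitrate dehydrogenase supply it from malate and isocitrate, and separate enzymes supply it in mitochondria. Several of these genes are known targets of NRF2, a transcription factor related to the NFE2L1 protein that binds antioxidant response elements, and A549 cells are known for loss of KEAP1, the protein that keeps NRF2 low.

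Because these elements are part of what the genes are known for, the members' promoters were searched for the core letters TGACNNNGC on both strands, which on the opposite strand read GCNNNGTCA. The search covered the 250 bases before each RefSeq start on GRCh38.p14, and all 6 members were found in that table. A match lay before the starts of ME1 and PGD and before the second of the 2 starts of IDH1. The stretch of 101 bases around each match is shown 5′ to 3′ on the gene's strand, with the match in capitals. None lay before TKT, TALDO1, IDH2 or the first IDH1 start. Of the table's 35116 promoters, 10.9% held a match, and over the 12296 promoters of genes tested below 11.8% did, so a match is common and is given as a description of the letters only.
ME1 (chr6:83431134-83431234, minus strand, match from -137 to -129): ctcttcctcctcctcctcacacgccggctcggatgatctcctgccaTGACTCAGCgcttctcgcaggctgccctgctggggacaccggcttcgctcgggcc
PGD (chr1:10398817-10398917, plus strand, match from -201 to -193, on the opposite strand): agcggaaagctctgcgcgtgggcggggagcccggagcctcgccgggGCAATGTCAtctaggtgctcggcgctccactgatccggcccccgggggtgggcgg
IDH1, second start (chr2:208255160-208255260, minus strand, match from -143 to -135): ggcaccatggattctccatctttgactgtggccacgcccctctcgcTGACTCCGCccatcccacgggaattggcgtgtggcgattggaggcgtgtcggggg

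Levels are given as FPKM, a read count divided by gene length and by the library's assigned reads. The libraries held 13211608 to 23819258 assigned reads. The 6 libraries with the title suffix R2 stood apart from their partners, which carry R1 in the knockout lines and no suffix in the control line. Mitochondrially encoded genes took 12.31% to 19.29% of reads in the R2 libraries and 5.44% to 6.8% in the others. Differences are therefore given from a fit with no replicate term and from a fit with the suffix as a replicate block. NFE2L1 was at 72.7 FPKM (unnumbered) and 151 FPKM (R2) in the control line with vehicle. It was at 8.45 and 14.8 FPKM (R1 and R2) in KO1 and at 18.6 and 33.6 FPKM in KO2. Its log2 fold change in vehicle was -3.11 in KO1 (adjusted p = 0.0666; -3.27 and 6.2e-05 with the block) and -2.02 in KO2 (adjusted p = 0.371; -2.18 and 0.000448 with the block). The transcript was lower but still present in both lines. An antisense gene overlaps it, and whether the counting used strand is not given in the sources used here. The 7 markers of the epithelial line were found and summed to 1125 to 3419 FPKM, while PTPRC, CD3E, PECAM1 and VWF stayed below 0.1 FPKM in every library. Most of the sum came from KRT7, KRT8 and KRT18 (112 to 755 FPKM) and AKR1B10 (545 to 1597 FPKM). AKR1B10 is also among the NRF2-responsive genes read below. CDH1 and EPCAM were low, at 1.42 to 9.53 and 1.25 to 10.6 FPKM.

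The 6 transcripts kept nearly the same order of level in all libraries. PGD had the highest FPKM, from 151 to 388 with a median of 259. TKT followed at 101 to 240 FPKM (median 149), and TALDO1 at 29.3 to 124 FPKM (median 73.5). ME1 lay at 11.7 to 99.3 FPKM (median 35.7), IDH1 at 10.3 to 38.7 FPKM (median 19.2) and IDH2 at 5.59 to 15.0 FPKM (median 9.66). This order held in 11 of 12 libraries. The exception was the unnumbered control library with vehicle, where IDH1 (38.2 FPKM) was slightly above ME1 (37.2 FPKM). The lowest read count behind any of these values was 292, for IDH2, and together the 6 genes took 0.175% to 0.370% of the assigned reads. By FPKM PGD and TKT therefore made up most of this set, and the isocitrate dehydrogenases had the lowest medians. The order between genes depends on the gene lengths used, 9507 bases for TKT and 2966 for PGD. By reads TKT was above PGD in every library, at 15486 to 45460 against 7350 to 27436.

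Within a group the R2 library was lower than its partner in 6 of 6 groups for PGD, TALDO1, ME1, IDH1 and IDH2, and in 4 of 6 for TKT. ME1 in R2 was 0.398 to 0.556 times its partner, TALDO1 0.396 to 0.617 times, IDH1 0.363 to 0.688 times and IDH2 0.406 to 0.656 times. PGD differed less, at 0.628 to 0.803 times, and TKT ranged from 0.697 to 1.20 times. The median tested gene was also lower in R2, by 0.114 to 0.34 on the log2 scale. For ME1, TALDO1, IDH1 and IDH2 this split between libraries of 1 group is as large as most differences between groups, and it widened the intervals of the fit without the block.

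**Figure D1:**
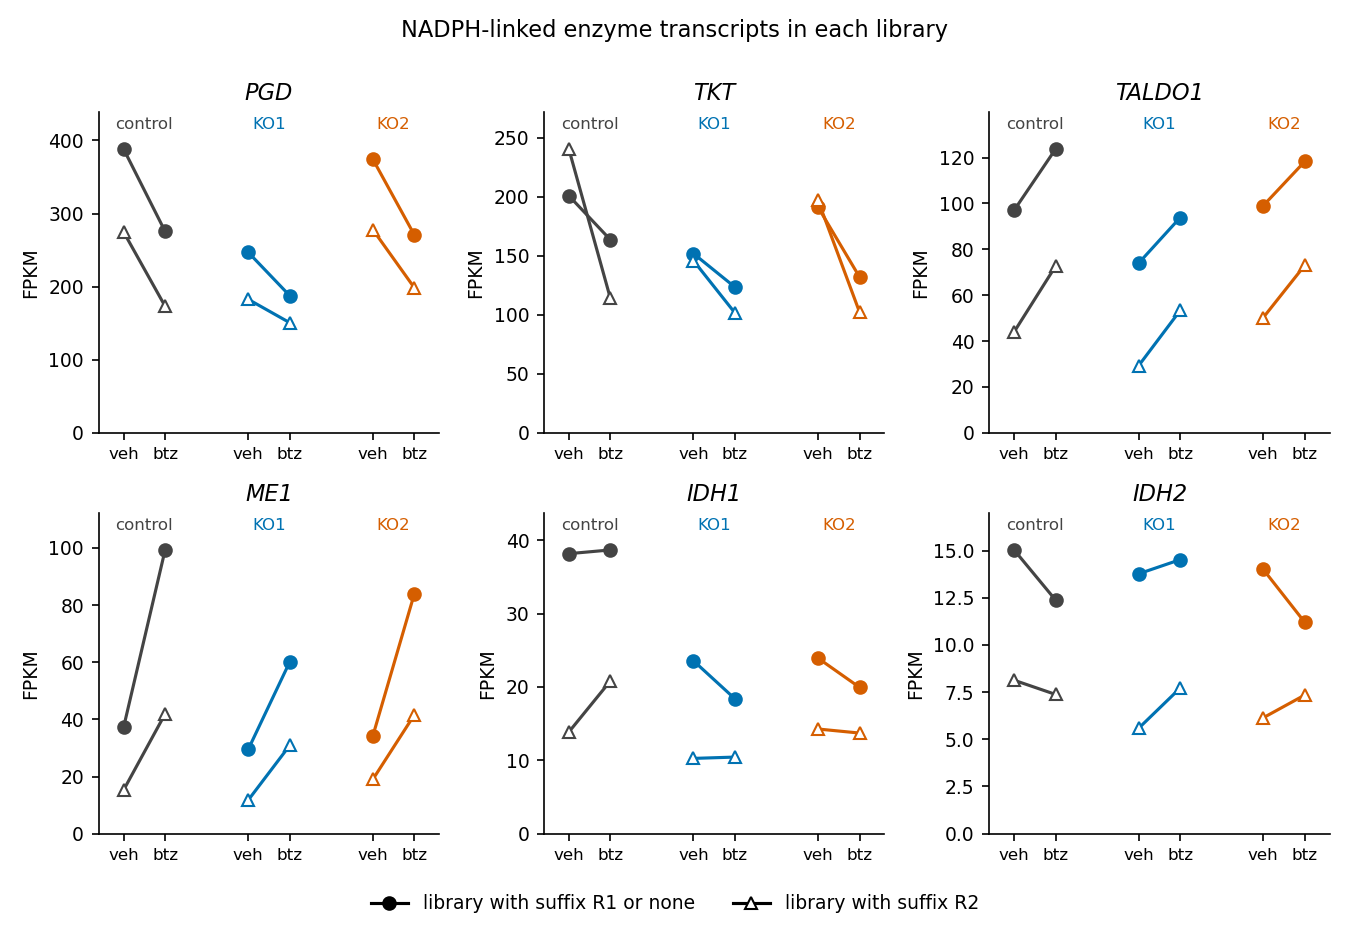
FPKM of each transcript in the 12 libraries, on axes that start at 0, with vehicle (veh) and bortezomib (btz) of the same line and replicate joined by a line; filled circles are libraries with suffix R1 or none and open triangles those with R2. All 6 lines rise for ME1 and TALDO1 and all 6 fall for PGD and TKT, while the lines of IDH1 and IDH2 run in both directions.

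With bortezomib, ME1 was higher and PGD and TKT were lower in each line, and TALDO1 was higher in each pair of libraries. With no replicate term 0 of 6 members were called at an adjusted p under 0.05 in any line, and 0 of 6 had an unadjusted p under 0.05. That fit called 0.467%, 0.238% and 0.320% of all tested genes for the control line, KO1 and KO2. With the replicate block 3 of 6 were called in the control line (1 up, 2 down), 2 of 6 in KO1 (2 up) and 3 of 6 in KO2 (1 up, 2 down). The block calls 32.4%, 27.7% and 27.0% of all tested genes in those comparisons, so a count of 2 or 3 of 6 lies within a count or so of that background. A block that codes the unnumbered control libraries as R1 called 4, 2 and 3 of 6, beside 32.5%, 27.9% and 27.0% of all tested genes. The median log2 fold change of the 6 was 0.05 for the control line, 0.04 for KO1 and -0.09 for KO2, against -0.01 over all tested genes in the control line, since members moved in both directions.

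PGD encodes the dehydrogenase that releases NADPH from phosphogluconate in the oxidative part of the pentose phosphate pathway. In the control line it was at 388 and 275 FPKM with vehicle (unnumbered and R2) and at 276 and 173 FPKM with bortezomib. In KO1 it was at 247 and 183 FPKM with vehicle and at 188 and 151 FPKM with bortezomib (R1 and R2). In KO2 it was at 374 and 278 FPKM with vehicle and at 271 and 198 FPKM with bortezomib. Each treated library was below its partner, and the groups did not overlap in KO2 but did in the control line and KO1. How many of all tested genes separate in this way was not counted, here or below, so a separation is a description only. On the log2 scale the change of PGD was -0.58 for the control line, -0.34 for KO1 and -0.48 for KO2. The adjusted p was 0.747, 0.938 and 0.907 in that order and, with the block, 0.013, 0.101 and 0.0337. PGD thus fell in the control line and in KO2 in the fit with the block. A pseudogene, PGDP1, reached at most 0.108 FPKM. With a block of R2 against the rest, leaving out the R2 control library with bortezomib raised the adjusted p in the control line to 0.137. The call in KO2 held in 4 of 12 such fits, those that left out a vehicle library of the control line or of KO1.

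TKT and TALDO1 encode transketolase and transaldolase, which move carbon between sugar phosphates in the reversible, non-oxidative part of the pathway. TKT was at 201 and 240 FPKM with vehicle in the control line and at 163 and 114 FPKM with bortezomib. In KO1 it went from 152 and 146 FPKM to 123 and 101 FPKM, and in KO2 from 191 and 197 FPKM to 132 and 102 FPKM. Both treated libraries lay below both vehicle libraries in each of the lines. The log2 fold changes of TKT were -0.68, -0.41 and -0.74 (adjusted p = 0.598, 0.891 and 0.672; with the block 0.0287, 0.158 and 0.0261). In the fit with the block TKT thus fell in the control line and in KO2. With a block of R2 against the rest, the call in the control line was lost without the R2 control library with vehicle (log2 -0.44, adjusted p = 0.168) or with bortezomib (-0.46, 0.202). The call in KO2 was lost without the R1 or R2 library of KO2 with vehicle (0.0725 and 0.151) or its R2 library with bortezomib (0.136).

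TALDO1 went the other way. It was at 97.0 and 44.0 FPKM with vehicle and 124 and 72.7 FPKM with bortezomib in the control line. In KO1 the values were 74.0 and 29.3 FPKM, then 93.9 and 53.4 FPKM, and in KO2 99.1 and 50.2 FPKM, then 118 and 73.1 FPKM. Each treated library exceeded its partner, by 1.19 to 1.82 times, but the groups overlapped in every line because of the split between replicates. Log2 fold changes of TALDO1 were 0.53, 0.59 and 0.39 (adjusted p = 0.857, 0.902 and 0.97; with the block 0.0507, 0.0384 and 0.139). TALDO1 rose in KO1 in the fit with the block, and with the unnumbered control libraries coded as R1 it also passed in the control line (adjusted p = 0.0404). That pass held only without a vehicle library of KO1 or a bortezomib library of KO2, in 4 of 12 fits that left out a library (0.0526 to 0.231 in the others). The KO1 call held in 7 of 12 such fits. It was lost without the R2 library of KO1 with vehicle (log2 0.37, adjusted p = 0.206), either KO1 library with bortezomib (0.0871 for R1 and 0.187 for R2) or either KO2 library with vehicle (0.0518 and 0.0525).

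ME1 encodes the cytosolic malic enzyme, which releases NADPH as it turns malate into pyruvate, and it had the largest change of the 6 with bortezomib. In the control line it was at 37.2 and 15.3 FPKM with vehicle and at 99.3 and 41.9 FPKM with bortezomib. In KO1 it was at 29.5 and 11.7 FPKM with vehicle and at 60.1 and 30.9 FPKM with bortezomib. In KO2 it was at 34.1 and 19.0 FPKM with vehicle and at 83.9 and 41.6 FPKM with bortezomib. Both treated libraries lay above both vehicle libraries in each line, and within pairs the level was 2.04 to 2.75 times higher. In the control line the log2 fold change of ME1 was 1.40 (95% interval with the block 1.06 to 1.73), in KO1 1.16 (0.83 to 1.50) and in KO2 1.18 (0.85 to 1.52). With no replicate term its adjusted p was 0.461, 0.686 and 0.685, and with the block 0.000332, 0.000988 and 0.000835. The call therefore rests on taking the replicate difference into account. It held in 12 of 12 fits that left out 1 library with the block of R2 against the rest, in each line. With no replicate term the value of ME1 depended on which library was left out, at 0.78 to 2.01 in the control line, 0.53 to 1.79 for KO1 and 0.68 to 1.68 for KO2, and it was called in 0 of those fits. The lowest values came without the R2 vehicle library of the control line or of KO1, or the R1 bortezomib library of KO2. In the control line the change stood at percentile 98.6 of all tested genes.

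IDH1 and IDH2 encode the NADP-dependent isocitrate dehydrogenases of the cytosol and peroxisomes and of mitochondria. IDH1 was at 38.2 and 13.9 FPKM with vehicle and at 38.7 and 20.8 FPKM with bortezomib in the control line. In KO1 it was at 23.6 and 10.3 FPKM, then 18.4 and 10.4 FPKM, and in KO2 at 23.9 and 14.3 FPKM, then 19.9 and 13.7 FPKM. The groups overlapped in every line, and the log2 fold changes were 0.29, -0.16 and -0.15, none of them called (adjusted p with the block 0.264, 0.555 and 0.578). The interval with the block ran from -0.13 to 0.71 in the control line, from -0.58 to 0.26 in KO1 and from -0.57 to 0.27 in KO2. An antisense gene, IDH1-AS1, overlaps IDH1, and reads from both cannot be told apart if the counting did not use strand. IDH2 was at 15.0 and 8.13 FPKM, then 12.4 and 7.38 FPKM, in the control line. In KO1 it was at 13.8 and 5.59 FPKM, then 14.5 and 7.72 FPKM, and in KO2 at 14.0 and 6.14 FPKM, then 11.2 and 7.35 FPKM. Its log2 fold changes were -0.19, 0.24 and -0.04 (adjusted p with the block 0.4, 0.313 and 0.893), with overlapping groups in every line.

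**Figure D2:**
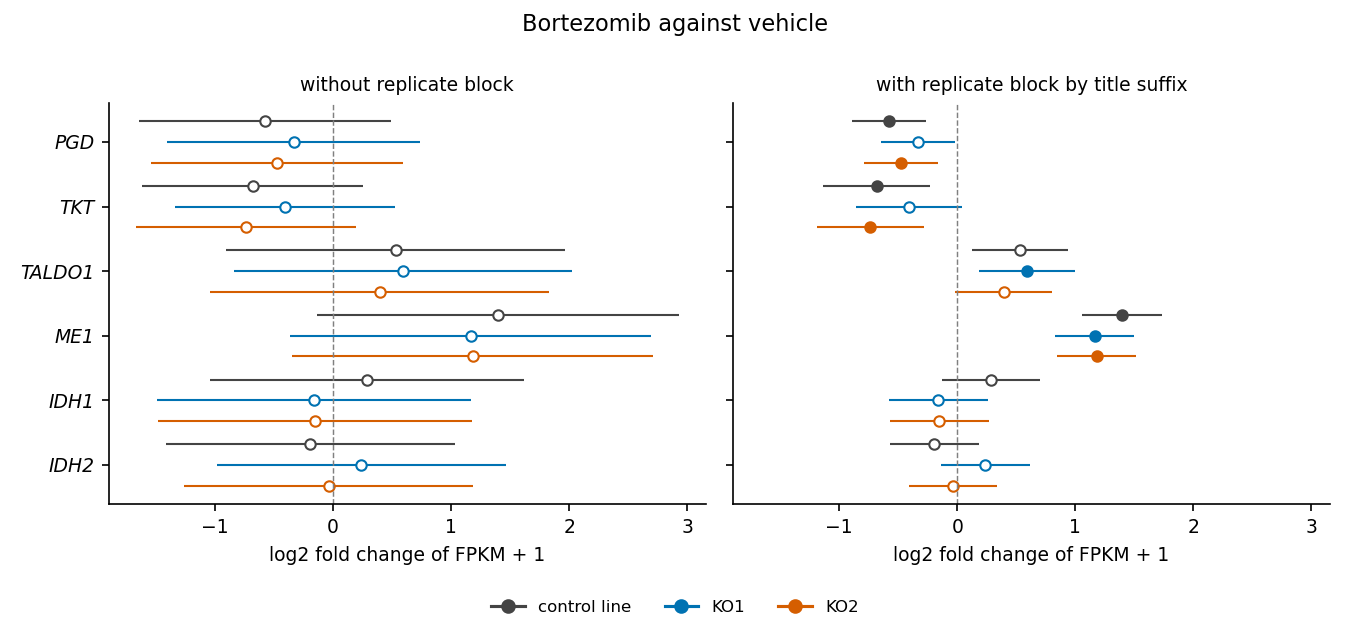
Log2 fold change of FPKM + 1 with bortezomib for each transcript and line, without (left) and with (right) the replicate block; bars are 95% intervals and filled points passed an adjusted p of 0.05. Points have the same position in both panels, and the intervals of ME1 lie above 0 in each line only with the block.

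Summed levels of 2 marker lists also differed with treatment. The fibroblast list, of which COL1A1 was nearly all, summed to 1.63 to 5.80 FPKM with vehicle and to 6.24 to 23.8 FPKM with bortezomib. The leukocyte list, of which CD14 was nearly all, summed to 0.73 to 3.63 FPKM with vehicle and to 0 to 0.815 FPKM with bortezomib, and the other 3 of its 4 genes stayed below 0.1 FPKM. The part of either in the members' differences was not tested. In RNA from whole cultures a change in the share of some cells and a change in RNA per cell cannot be told apart.

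Ratios within a library do not depend on its depth, and 3 of them separated the treatments in all lines. The size of a ratio depends on the gene lengths used, which are the same for every library. TALDO1 was 0.183 to 0.519 times TKT in the 6 vehicle libraries and 0.526 to 0.898 times TKT in the 6 bortezomib libraries. ME1 was 0.0555 to 0.119 times PGD with vehicle and 0.205 to 0.360 times PGD with bortezomib. ME1 was 0.975 to 1.43 times IDH1 with vehicle and 2.01 to 4.21 times IDH1 with bortezomib. IDH1 over IDH2 overlapped between treatments, at 1.70 to 2.54 and 1.27 to 3.12. With bortezomib this last ratio was 3.12 and 2.82 for control libraries, 1.27 and 1.35 for KO1 and 1.78 and 1.87 for KO2. A ratio shows that 2 transcripts changed unequally, and these ratios were not tested. Each of the 3 sets a member that was higher with bortezomib over one that was lower or not called. Their separation thus restates the changes given above. The share of other gene pairs that separate in this way was not counted.

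**Figure D3:**
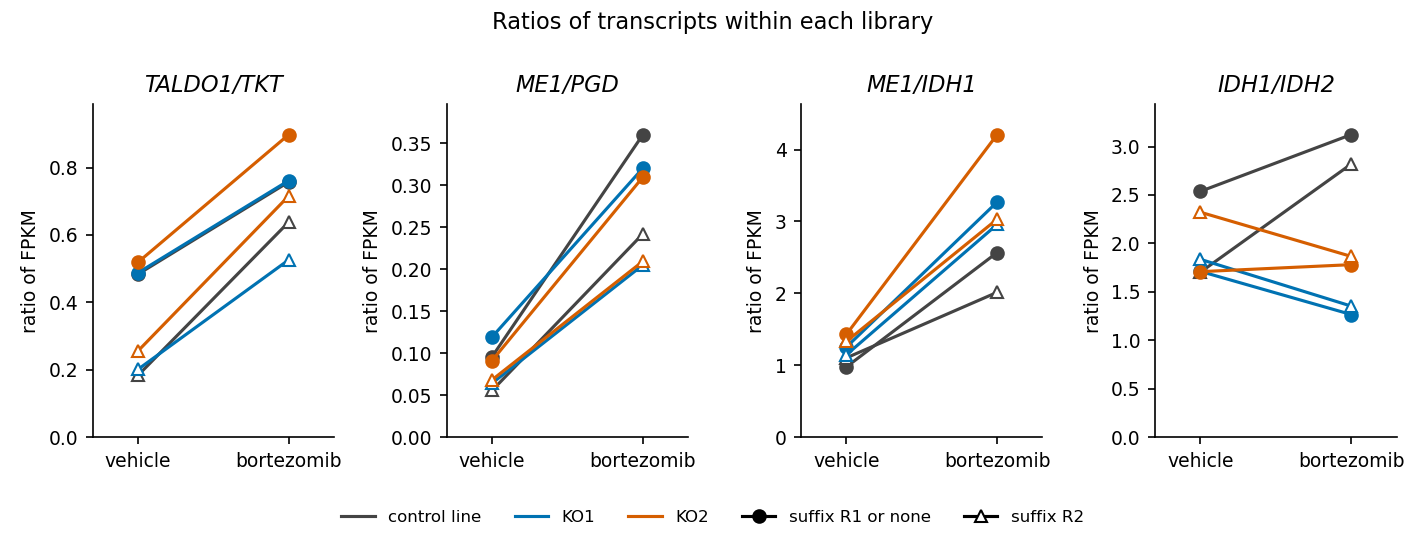
Ratio of FPKM between pairs of transcripts in each library, with vehicle and bortezomib of the same line and replicate joined; filled circles are libraries with suffix R1 or none and open triangles those with R2. Ratios of TALDO1 to TKT, ME1 to PGD and ME1 to IDH1 do not overlap between treatments, the first only narrowly (0.519 against 0.526).

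Other genes of the same pathways were read from 4 lists with 30 genes, of which 26 had a mean FPKM of at least 1. With bortezomib and no replicate term, 0 rose and 1 fell in the control line, and 0 were called in KO1 or KO2 (3 had an unadjusted p under 0.05 in each). Over all tested genes that fit called 0.467%, 0.238% and 0.320%, in the order control line, KO1 and KO2. With the block 4 rose and 5 fell in the control line, 5 rose and 2 fell in KO1, and 5 rose and 4 fell in KO2. The block called 32.4%, 27.7% and 27.0% of all tested genes, so these counts lie near that background. The largest fall was of H6PD, the enzyme that runs the oxidative pentose phosphate steps inside the endoplasmic reticulum. It was at 8.98 and 17.1 FPKM with vehicle and 1.36 and 2.10 FPKM with bortezomib in the control line, 11.6 and 15.8 FPKM against 1.69 and 2.5 FPKM in KO1, and 6.51 and 13.3 FPKM against 1.13 and 1.78 FPKM in KO2. The log2 fold changes of H6PD were -2.31, -2.25 and -2.09 (adjusted p with the block 9.7e-05, 0.000129 and 0.000157), and in the control line it was called with no replicate term too (adjusted p = 0.0478). PRPS2, which makes the pentose diphosphate for nucleotide synthesis, fell in the control line with the block (log2 -0.63, adjusted p = 0.0157). The other 4 tested genes of this list, PGLS, RPIA, RPE and PRPS1, were not called.

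Of 6 tested genes of folate-linked NADPH metabolism, 3 rose and 2 fell in the control line, 3 rose in KO1, and 4 rose and 2 fell in KO2 with the block. Over all tested genes that fit called 32.4%, 27.7% and 27.0%. MTHFD2, the mitochondrial methylenetetrahydrofolate dehydrogenase, was at 36.2 and 9.59 FPKM with vehicle and 75.8 and 35.7 FPKM with bortezomib in the control line. In KO1 it went from 17.1 and 6.60 FPKM to 70.4 and 31.6 FPKM, and in KO2 from 17.3 and 10.1 FPKM to 69.0 and 39.1 FPKM. The vehicle and bortezomib libraries of MTHFD2 overlapped in the control line and did not in the knockout lines, and it rose by 1.42, 2.04 and 1.89 on the log2 scale (adjusted p with the block 0.00135, 0.000364 and 0.000422). SHMT2, the mitochondrial serine hydroxymethyltransferase, rose by 0.47 in the control line, by 0.87 in KO1 and by 0.85 in KO2 (adjusted p with the block 0.0306, 0.00287 and 0.00309). MTHFD1L, a mitochondrial synthetase, rose by 0.43, 0.88 and 0.98 (0.0341, 0.00205 and 0.00116). Their cytosolic counterparts were among the genes that fell. SHMT1 had log2 fold changes of -0.82 in the control line and -0.62 in KO2 (adjusted p with the block 0.00653 and 0.0254), and MTHFD1 of -0.59 and -0.60 (0.0172 and 0.0198).

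Among the 3 genes of NADP supply and exchange, NADK2, the mitochondrial NAD kinase, rose in each line with the block by 0.55, 0.64 and 0.54 on the log2 scale (adjusted p = 0.0161, 0.00961 and 0.0199). NNT, an enzyme of the inner mitochondrial membrane that transfers hydride to NADP, fell in each line (log2 -1.07, -0.91 and -0.85, adjusted p with the block 0.0184, 0.0381 and 0.0493). NADK was not called. Of 11 genes around malate, citrate and isocitrate, 1 was called in 1 line with the block, beside 27.0% to 32.4% of all tested genes. This was IDH3A, a subunit of the NAD-dependent isocitrate dehydrogenase, which rose in KO1 (log2 0.52, adjusted p with the block 0.0343). Of the other malic enzymes, ME2 had a log2 fold change of 0.03 in the control line and 0.50 in KO1 as in KO2 (adjusted p with the block 0.912, 0.0568 and 0.0593). With the unnumbered control libraries coded as R1, ME2 passed in KO1 and KO2 (0.0463 and 0.0484). ME3 had log2 fold changes of -0.43, -0.25 and -0.10 and was not called with either block.

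**Figure D4:**
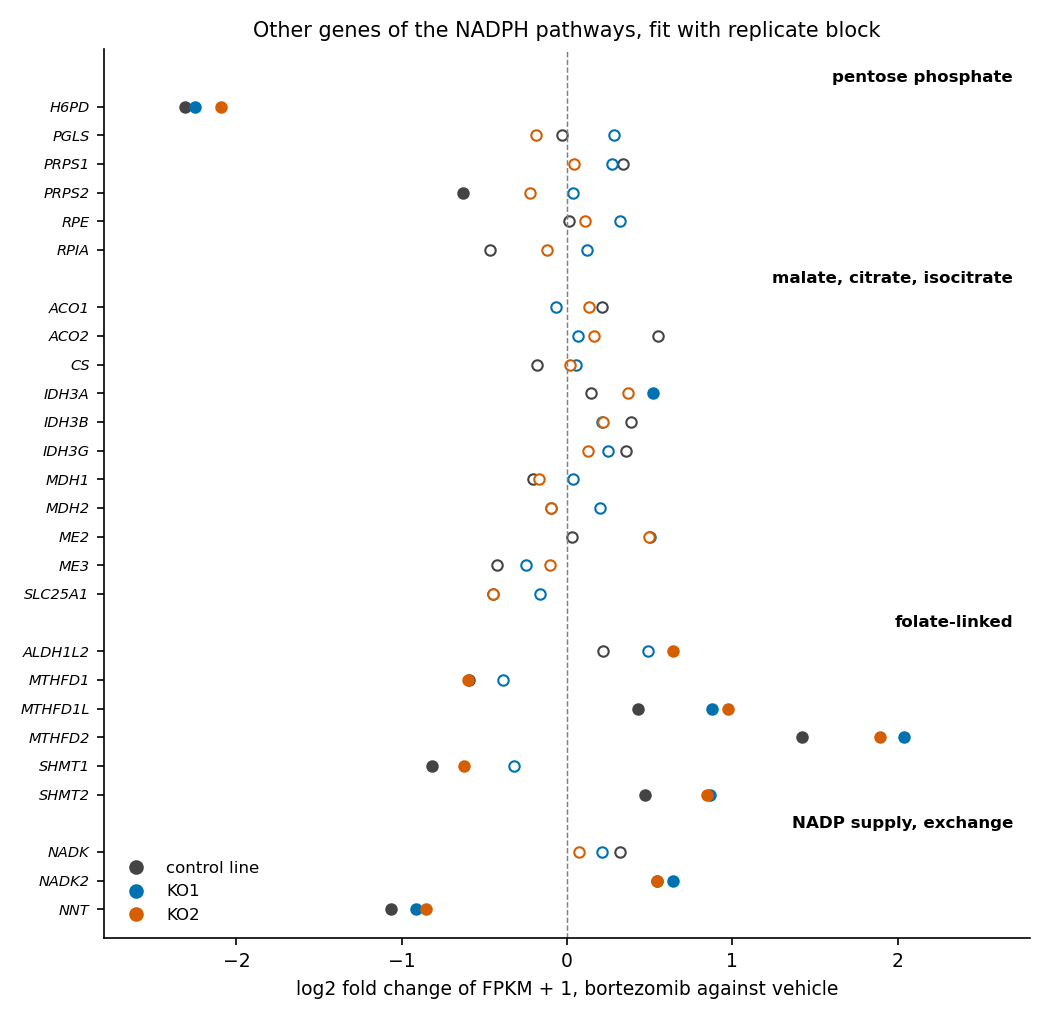
Log2 fold change of FPKM + 1 with bortezomib in the fit with the replicate block for the 26 tested genes of the pathway lists, coloured by line; filled points passed an adjusted p of 0.05, and points at the same value cover each other. H6PD lies at the left in each line and MTHFD2 at the right, and most genes around malate and citrate lie near 0.

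A further list gave the surroundings of the members, 11 genes known to respond to NRF2, all of them tested. Of these 0 were called in any line with no replicate term, and 1 had an unadjusted p under 0.05 in each. With the block 2 of the 11 rose and 1 fell in the control line, 3 rose in KO1 and 1 rose in KO2, beside 32.4%, 27.7% and 27.0% of all tested genes. OSGIN1 was the largest rise in each line, at log2 1.50, 1.54 and 0.98 (adjusted p with the block 0.000558, 0.000671 and 0.00501). HMOX1, heme oxygenase, rose by 0.67 in the control line and 1.12 in KO1 (0.0356 and 0.0052). With the unnumbered control libraries coded as R1 the first of these calls was lost (adjusted p = 0.183) and the other kept (0.0452). AKR1B10, an aldo-keto reductase that spends NADPH, fell in the control line (log2 -0.56, adjusted p with the block 0.0439), a call that was lost with that coding (0.11).

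In the knockout lines with vehicle, differences of the 6 members from the control line were smaller than those of ME1 with bortezomib. With no replicate term 0 of 6 were called in KO1 or in KO2, where 0.213% and 0.230% of all tested genes were called, and with the block 0 of 6 again, where 5.95% and 4.91% were. An unadjusted p under 0.05 was found for 0 of 6 with no replicate term in either line, and for 2 of 6 in KO1 and 0 of 6 in KO2 with the block. The log2 fold changes in KO1 with no replicate term were -0.62 for PGD, -0.56 for TKT, -0.54 for IDH1, -0.48 for TALDO1, -0.34 for ME1 and -0.29 for IDH2. All 6 had the same sign in both pairs of libraries, and the share of all tested genes that did so was not counted. PGD and TKT of KO1 lay below both control libraries, at 247 and 183 FPKM against 388 and 275 FPKM for PGD. TKT of KO2 did so as well, at 191 and 197 FPKM against 201 and 240 FPKM. With the unnumbered control libraries coded as R1, PGD passed in KO1 (log2 -0.62, adjusted p = 0.0303), 1 of 6 members beside 7.96% of all tested genes, and 0 of 6 passed in KO2 (4.89%). That call held in 4 of 12 fits that left out a library, those without a bortezomib library of the control line or of KO2, and the adjusted p was at most 0.105 in the others. In KO2 the log2 fold changes ran from -0.31 for IDH1 to 0.11 for TALDO1.

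With bortezomib in both lines compared, 0 of 6 members were called in KO1 or KO2 with no replicate term (0.107% and 0.0656% of all tested genes) and 0 of 6 with the block (7.54% and 4.81%). Members with an unadjusted p under 0.05 were 0 of 6 in either line with no replicate term, and 2 of 6 in KO1 and 1 of 6 in KO2 with the block. IDH1 had the lowest value in both. Its control libraries were at 38.7 and 20.8 FPKM, KO1 at 18.4 and 10.4 FPKM and KO2 at 19.9 and 13.7 FPKM, so neither knockout line overlapped the control line. The share of all tested genes that separated like this was not counted. Within pairs IDH1 was 0.475 and 0.502 times the control level in KO1 and 0.516 and 0.659 times in KO2. Log2 fold changes of IDH1 were -0.98 in KO1 (-0.80 with the block, interval -1.30 to -0.31, adjusted p = 0.0562) and -0.74 in KO2 (-0.57 with the block, interval -1.06 to -0.08, adjusted p = 0.185). With the unnumbered control libraries coded as R1, IDH1 (adjusted p = 0.0116) and ME1 (log2 -0.57, adjusted p = 0.0368) passed in KO1, 2 of 6 members beside 12.8% of all tested genes. In KO2 0 of 6 passed (6.47%). IDH1 then held in 8 of 12 fits that left out a library and was lost without any 1 of the 4 bortezomib libraries of the control line and KO1 (adjusted p = 0.0604 to 0.0929). ME1 held in 6 of 12, and was lost without those libraries (0.115 to 0.241) or either KO2 vehicle library (0.0507 and 0.0516). IDH1 of KO2 missed the threshold with that block (adjusted p = 0.0536) and passed it without either control library with vehicle (0.0237 and 0.024). The comparisons of both knockout lines share their control libraries.

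**Figure D5:**
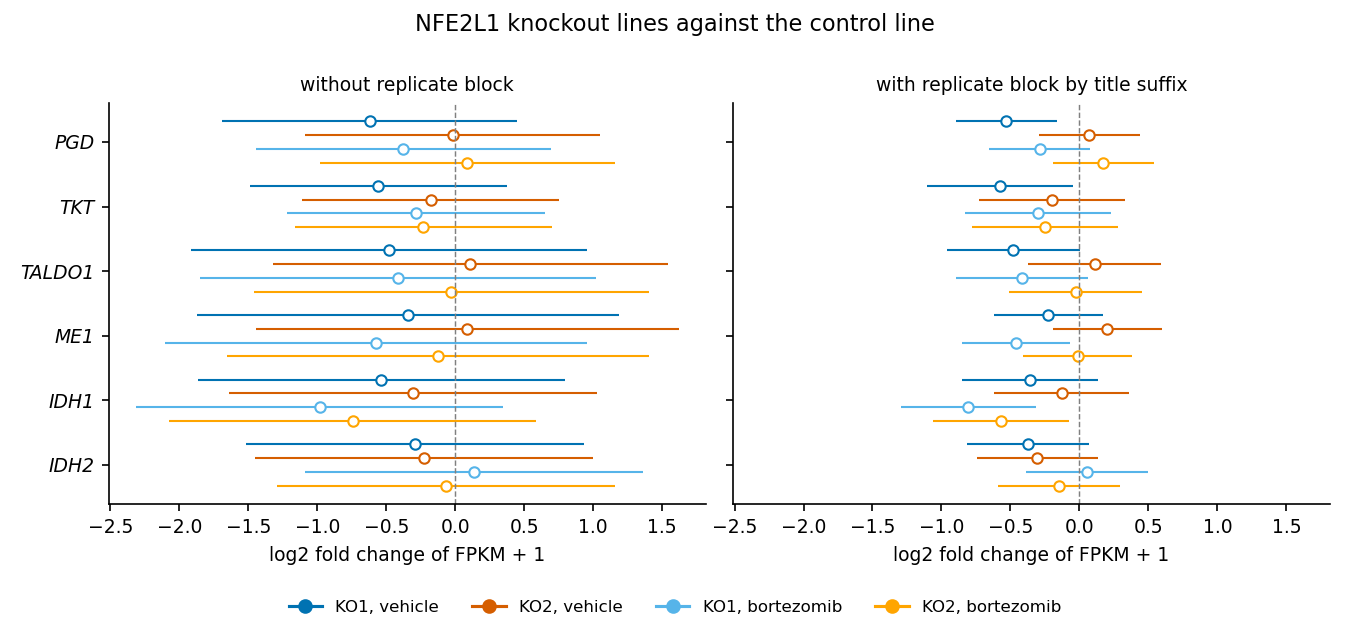
Log2 fold change of FPKM + 1 of each knockout line against the control line, in vehicle and in bortezomib, without (left) and with (right) the replicate block; bars are 95% intervals, and open points did not pass an adjusted p of 0.05. No point is filled. Intervals with the block lie below 0 for PGD and TKT in KO1 with vehicle. With bortezomib they do so for ME1 and IDH1 in KO1 and for IDH1 in KO2.

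The 2 knockout lines were also compared with each other. With vehicle all 6 members had lower values in KO1 than in KO2 in both pairs, with log2 fold changes of -0.60 for PGD, -0.59 for TALDO1, -0.43 for ME1, -0.38 for TKT, -0.23 for IDH1 and -0.07 for IDH2. The median over all tested genes was -0.05, and the share of them lower in KO1 in both pairs was not counted. With no replicate term 0 of 6 were called (0.0656% of all tested genes; 0 of 6 at an unadjusted p under 0.05), and with the block 0 of 6 (3.00%; 3 of 6 at an unadjusted p under 0.05). Testing the recovered reads with voom and the block called 2, PGD (adjusted p = 0.0212) and TALDO1 (0.0474). That fit called 341 genes up and 407 down of the 12194 tested, more than the suffix block without voom. The block that codes the unnumbered control libraries as R1 called 0 of 6 (2.48%). In the NRF2-responsive list 3 of 11 genes were lower in KO1 than in KO2 with the suffix block, 2 with the other coding and 0 with no replicate term. AKR1C1 was at 6.23 and 8.47 FPKM in KO1 against 30.5 and 30.0 FPKM in KO2 (log2 -1.92, adjusted p with the block 0.00181), and AKR1B10 had a log2 fold change of -1.18 (0.0121). HMOX1, the third, had -1.15 (0.0227) and was lost with the other coding (0.152). Against the control line with vehicle, AKR1C1 and HMOX1 were lower in KO1 (log2 with the block -1.46 and -1.44, adjusted p = 0.00827 and 0.0111). Neither passed with no replicate term (adjusted p = 0.22 and 0.369). In KO2 with vehicle 0 of 11 were called in any of these fits, beside 4.91% of all tested genes with the block. With bortezomib AKR1B10 and TXNRD1 were higher in KO2 than in the control line (log2 with the block 1.40 and 0.90, adjusted p = 0.00833 and 0.0252), again with neither called without a replicate term (adjusted p = 1 for both). In KO1 with bortezomib AKR1C1 and HMOX1 were lower than in the control line with the block (-1.13 and -0.996, adjusted p = 0.0213 and 0.0419), and not called without it (0.309 and 0.544). HMOX1 was also lower in KO2 with bortezomib when the unnumbered control libraries were coded as R1 (log2 -1.41, adjusted p = 0.0494). It was not called there with the suffix block.

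Of the pathway lists, 1 of 26 tested genes was lower in KO1 than in the control line with vehicle with the block, and this was RPE, the ribulose phosphate epimerase (log2 -0.67, adjusted p = 0.0461). Over all tested genes that fit called 5.95% in KO1 with vehicle and 7.54% in KO1 with bortezomib. In KO2 it called 4.91% with vehicle and 4.81% with bortezomib. With bortezomib 1 of 26 was higher in KO1, ME2, the mitochondrial malic enzyme, at 16.5 and 8.58 FPKM against 9.36 and 3.53 FPKM (log2 with the block 0.87, adjusted p = 0.034). In KO2 against the control line that fit called 0 of the 26 in either treatment, and an unadjusted p under 0.05 was reached by 2 with vehicle and 4 with bortezomib. With the unnumbered control libraries coded as R1, CS and SHMT2 were higher in KO2 with bortezomib (adjusted p = 0.041 and 0.0274). ME3 and SHMT2 were then higher in KO1 with bortezomib beside ME2 (0.0263, 0.0117 and 0.00668), and RPE stayed lower in KO1 with vehicle (0.0108). That coding called 6.47% of all tested genes in KO2 with bortezomib. In KO1 it called 12.8% with bortezomib and 7.96% with vehicle. The fit with no replicate term called 0 of 26 in these 4 comparisons, where 1 in KO1 with bortezomib had an unadjusted p under 0.05.

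An interaction term tested if the knockout lines responded to bortezomib in another way than the control line. With limma 0 of 6 members were called with or without the block, as were 0% of all tested genes in both fits. An unadjusted p under 0.05 was reached by 115 genes in the fit with no replicate term, by 1305 with the block and by 0 of 6 members in either, and voom with the block called 123 genes and 0 members. The interaction of ME1 was -0.22 on the log2 scale (interval with the block -0.63 to 0.19), an interval that holds both smaller and larger responses in the knockout lines than in the control line. That of TALDO1 was -0.04 (-0.54 to 0.46), of PGD 0.17 (-0.21 to 0.56) and of TKT 0.11 (-0.44 to 0.66). IDH1 had the lowest, -0.44 (-0.96 to 0.07, adjusted p with the block 0.531), and IDH2 the highest, 0.29 (-0.17 to 0.75, adjusted p with the block 0.669).

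Across the 12 libraries, after each gene was centred within the R2 libraries and within the others, ME1 and TALDO1 ran together (r = 0.88) and so did PGD and TKT (r = 0.85). ME1 and TKT ran opposite (r = -0.63). These values are descriptions of 12 libraries that share lines and treatments. By the same measure the genes most like ME1 were LRRFIP2 (r = 0.99), GOLGA6L9 (0.99) and KCMF1 (0.99). Those most like PGD were FLOT1, XRCC1 and AKR1C3 (r = 0.97, 0.97 and 0.96), and those most like TKT were KHK, LDAH and PPIB (0.97, 0.96 and 0.96). TALDO1 was most like STRN4, ATP5SL and MAP2K1 (0.98 each), and IDH1 most like TTL (0.98), RP11-540B6.6 (0.96) and MRPL52 (0.95). IDH2 had no gene as close, with TNNT1 at 0.89, RPL26L1 at 0.87 and DNPH1 at 0.87.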

How the data were processed

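The authors deposited 1 table of FPKM for 58676 genes in 12 libraries. Per the submitters' processing notes, CASAVA, STAR 2.5, HTSeq 0.6.1, DESeq2 and hg19 were named, with no role given. The gene positions in the table are those of GRCh38, however, since all IDs were in GENCODE 29 and 95.2% had the same position. Strand and counting settings are not given in the sources used here. FPKM times length gave whole reads for 100% of values (tolerance 0.05 reads), which gave the depths.

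Groups came from the labels. log2(FPKM + 1) was fitted with limma 3.58.1 in R 4.3.3 (lmFit, eBayes with trend), with 1 mean per group and all 12 libraries in 1 fit. A mean FPKM of 1 or more kept 12194 genes (20.8%) for testing, with Benjamini-Hochberg adjustment over all of them and a threshold of 0.05. Fold changes on this scale understate those of low genes. An exact permutation test of 2 against 2 cannot go below p = 0.333 and was not used. Python 3.11.15, pandas 2.3.3 and numpy 2.4.6 read the table. The fits were also run on simulated data to check the code. The final criteria of that check were set after its output was seen, so it is no support for the results.

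Whether the title suffix pairs libraries was checked by correlating the replicate difference over genes between groups. It was 0.80 to 0.89 over the 6 pairs of knockout groups and 0.70 to 0.89 over all 15 pairs, so the fit with the suffix as a replicate block stands beside the fit without it. No control library carries R1 and no knockout library lacks a suffix, so in that fit knockout and control lines are tied through R2. A block that codes the unnumbered control libraries as R1 was an alternative.

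The members and lists were chosen with earlier results of these data known. The text names all members, NFE2L1, at most the 2 largest rises and falls per list and comparison among called genes, and the 3 genes most like each member. A gene named for 1 comparison is also given in some others where it ranked lower, as with MTHFD1L, SHMT2 and HMOX1. Further called genes are not named. List genes that were not called are given where they complete a group, chosen after their values were seen. A list of users of NADPH in synthesis and 1 marker gene are not reported here.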

Additional observations from a re-analysis of the deposited data

Results flagged for a closer look

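For 2 transcripts every library pair of one line moved opposite to every pair of the control line with bortezomib. IDH1 was higher with bortezomib in both pairs of the control line and lower in both pairs of KO2, and the difference between the responses was -0.44 on the log2 scale (adjusted p = 1 with no replicate term and 0.826 with the block). IDH2 was lower in both pairs of the control line and higher in both pairs of KO1, with a difference of 0.43 (adjusted p = 1, and 0.594 with the block). Neither difference passed the test. The move of IDH1 in the unnumbered pair of the control line was small, from 38.2 to 38.7 FPKM. That in the R2 pair of KO2 was small too, from 14.3 to 13.7 FPKM. The share of all tested genes with opposite moves of this kind was not counted.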

How the results depend on the processing

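Without a replicate term, no alternative called a member in any of the 9 comparisons: a pseudocount of 0.1, no filter on low values, FPKM rescaled to a common sum, mitochondrial genes left out, voom on recovered reads, or a fit of the groups compared alone. The last was not run for the interaction, which uses all groups. Over these and the block alternatives, 490 of 534 values of single members kept their direction and their side of the threshold, 40 newly passed it, all with a block, and 4 changed sign.

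The replicate block changed the counts of members called with bortezomib from 0 to 3 for the control line, 2 for KO1 and 3 for KO2. Coding the unnumbered control libraries as R1 gave 4, 2 and 3 with that block, and also 1 in KO1 against the control line with vehicle and 2 with bortezomib. The block on FPKM rescaled to a common sum gave 3, 2 and 2, and 1 in KO1 against the control line with bortezomib. Of the 12194 tested genes it called 1826 up and 1979 down with bortezomib in the control line. In KO1 it called 1659 up and 1548 down, and in KO2 1506 up and 1571 down. For KO1 against the control line with bortezomib these counts were 322 and 493. The block with voom gave 4, 2 and 3, then 1 in that comparison and 2 in KO1 against KO2 with vehicle. Over all tested genes voom with the block called 2265 up and 2319 down with bortezomib in the control line. In KO1 it called 2000 up and 2025 down, and in KO2 1864 up and 2172 down. The counts were 790 and 767 for KO1 against the control line with bortezomib, and 341 and 407 for KO1 against KO2. PGD in KO2 against the control line with vehicle, -0.02 with no block, was 0.0705 with the block, 0.0107 with the block on a common sum and 0.0709 with the block and voom. IDH2 in KO1 against the control line with bortezomib became -0.0147 with the block on a common sum. The median of all tested genes in KO2 against the control line with vehicle reached 0.10 with the block and voom. The effect of the block follows from its construction, which removes the R2 difference from the spread.

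Leaving out 1 library at a time, with or without the block, gave 0 to 4 members called with bortezomib for the control line, 0 to 2 for KO1 and 0 to 3 for KO2. Against the control line it gave 0 to 1 in KO1 with vehicle, 0 to 2 in KO1 with bortezomib and 0 to 1 in KO2 with bortezomib. The log2 fold changes that changed sign had these ranges, and none was called where its sign had changed. With bortezomib in the control line they were -0.0316 to 1.09 for TALDO1, -0.41 to 0.99 for IDH1 and -0.60 to 0.21 for IDH2. In KO1 they were -0.0624 to 1.25, -0.72 to 0.40 and -0.34 to 0.82 for the same genes, and in KO2 -0.0901 to 0.88, -0.51 to 0.20 and -0.57 to 0.50. For KO1 against the control line with vehicle they were -1.13 to 0.18 (TALDO1), -0.97 to 0.29 (ME1), -1.24 to 0.16 (IDH1) and -0.88 to 0.29 (IDH2). For KO2 they were -0.27 to 0.23 (PGD), -0.43 to 0.0679 (TKT), -0.45 to 0.67 (TALDO1), -0.53 to 0.70 (ME1), -1.01 to 0.39 (IDH1) and -0.76 to 0.31 (IDH2). With bortezomib they were -1.18 to 0.0405 (ME1) and -0.28 to 0.55 (IDH2) in KO1, and -0.25 to 0.42 (PGD), -0.49 to 0.0263 (TKT), -0.41 to 0.35 (TALDO1), -0.74 to 0.49 (ME1) and -0.41 to 0.27 (IDH2) in KO2. For KO1 against KO2 they were -1.24 to 0.0665 (TALDO1), -1.06 to 0.20 (ME1), -0.79 to 0.33 (IDH1) and -0.65 to 0.51 (IDH2). For the interaction they were -0.16 to 0.51 (PGD), -0.15 to 0.37 (TKT), -0.60 to 0.52 (TALDO1), -0.84 to 0.39 (ME1), -1.14 to 0.26 (IDH1) and -0.11 to 0.70 (IDH2). A group left with 1 library is assumed to vary like the others.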
